A study of Mus musculus with 12 samples.

Results

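The genes of gp130 and prolactin signalling through JAK kinases and STAT transcription factors were followed in an insulin-producing cell line. The set holds 10 genes chosen by symbol: the receptor chains Il6st, Lifr and Prlr, the kinases Jak1 and Jak2, the transcription factors Stat3 and Stat5b, and the feedback inhibitors Socs2, Socs3 and Cish. Of these, 9 were measured, among 19938 genes in all, and Prlr was not analysed here. Each gene was read from a probe set that the platform annotation gives to that gene alone. A gene with several such probe sets is given by whichever had the highest mean of the 12 arrays.

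Il6st encodes gp130, the signalling chain shared by the receptors for interleukin-6, leukaemia inhibitory factor (LIF), cardiotrophin and related cytokines, and Lifr encodes the chain that pairs with gp130 to bind LIF. Binding of a ligand activates JAK kinases attached to the receptor tails, which phosphorylate STAT proteins that then enter the nucleus. The prolactin receptor works in the same way, through Jak2 and the STAT5 proteins, and in beta cells it is known for its part in the growth of islets during pregnancy. STAT proteins in turn raise transcription of Socs2, Socs3 and Cish, whose products dampen the receptors that induced them.

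The cells were MIN6, a line from a mouse insulinoma that stands in for pancreatic beta cells, which were transfected with 2 uM siRNA and analysed after 12 to 24 hours. In DC (Defined Conditions), the medium had no serum and the oxygen was 5%, with 4 arrays labelled Hes3 siRNA (replicates 1, 2, 5 and 7) and 4 scrambled siRNA arrays. In CC (Classic Conditions), the medium held serum and the oxygen was 20%, with 2 arrays labelled Hes3 siRNA and 2 scrambled siRNA arrays. Hes3, the target of the siRNA, encodes a transcriptional repressor. Serum and oxygen differ together between DC and CC, so their shares of a difference cannot be told apart.

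The deposited log2 signals, on which a difference of 1 is a doubling, spanned 3.94 to 14.4. No fall in Hes3 came with the Hes3 siRNA label: Hes3 averaged 7.34 ± 0.0609 (SD, n = 4) in DC with Hes3 siRNA and 7.19 ± 0.0640 (SD, n = 4) in DC with scrambled siRNA, a log2 difference of 0.15 (limma adjusted p = 0.114). In CC the Hes3 means were 7.22 ± 0.00521 (SD, n = 2) for the Hes3 siRNA label and 7.02 ± 0.291 (SD, n = 2) for scrambled siRNA. The Hes3 probe set is dim, at percentile 29.8 of all genes by mean signal. Among genes with mean signals of 6.98 to 8.11, which include Hes3, the median log2 difference within DC was 0.21 and 56.9% were higher. Whether so dim a probe set can show a fall was not tested. The groups are therefore called by their labels, and a difference between labels is not taken for a consequence of less Hes3 mRNA. The first principal component of the 19938 genes, with 1 probe set each, held 61% of the variance. On it DC arrays 1 and 5 labelled Hes3 siRNA (scores 34.8 and 29.2) stood apart from arrays 2 and 7 of that group (15.6 and 12.8). The CC scrambled arrays also lay apart from each other, array 1 at -7.96 and array 2 at -32.7. Medians and spreads over all probe sets differed between arrays. DC array 1 labelled Hes3 siRNA had a median of 7.96 and an SD of 1.76. For CC scrambled array 2 they were 7.78 and 1.90. Ins2, an insulin gene, lay between 12.8 and 12.9 in every array. In extracts of many cells, fewer cells expressing a gene and less RNA per cell cannot be told apart.

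Within DC, the receptor chains Il6st and Lifr and the kinases Jak1 and Jak2 were each between 22.3% and 23.9% lower in arrays labelled Hes3 siRNA than in scrambled arrays, and the inhibitor Socs2 was higher. That made 4 of 9 genes lower and 1 of 9 higher (limma, Benjamini-Hochberg adjusted p under 0.05), where 18.3% of all genes were lower and 28.9% higher, 47.2% in all. Within CC, 0 of 9 genes and 0 of 19938 genes passed limma. At an unadjusted p under 0.05 the counts in CC were 0 of 9 and 415 of 19938 (2.08%). Between media, the inhibitors Socs2 and Cish were lower in DC than in CC under both siRNA labels. With Hes3 siRNA, 5 of 9 genes were lower in DC than in CC (Il6st, Lifr, Stat3, Socs2 and Cish), against 18.8% of all genes lower and 21.2% higher, 40.1% in all. With scrambled siRNA, Socs2 and Cish were lower and Jak1 was higher, 3 of 9, against 5.45% of all genes lower and 3.09% higher, 8.54% in all. The comparisons share arrays, so their counts are not independent of each other.

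**Figure D1:**
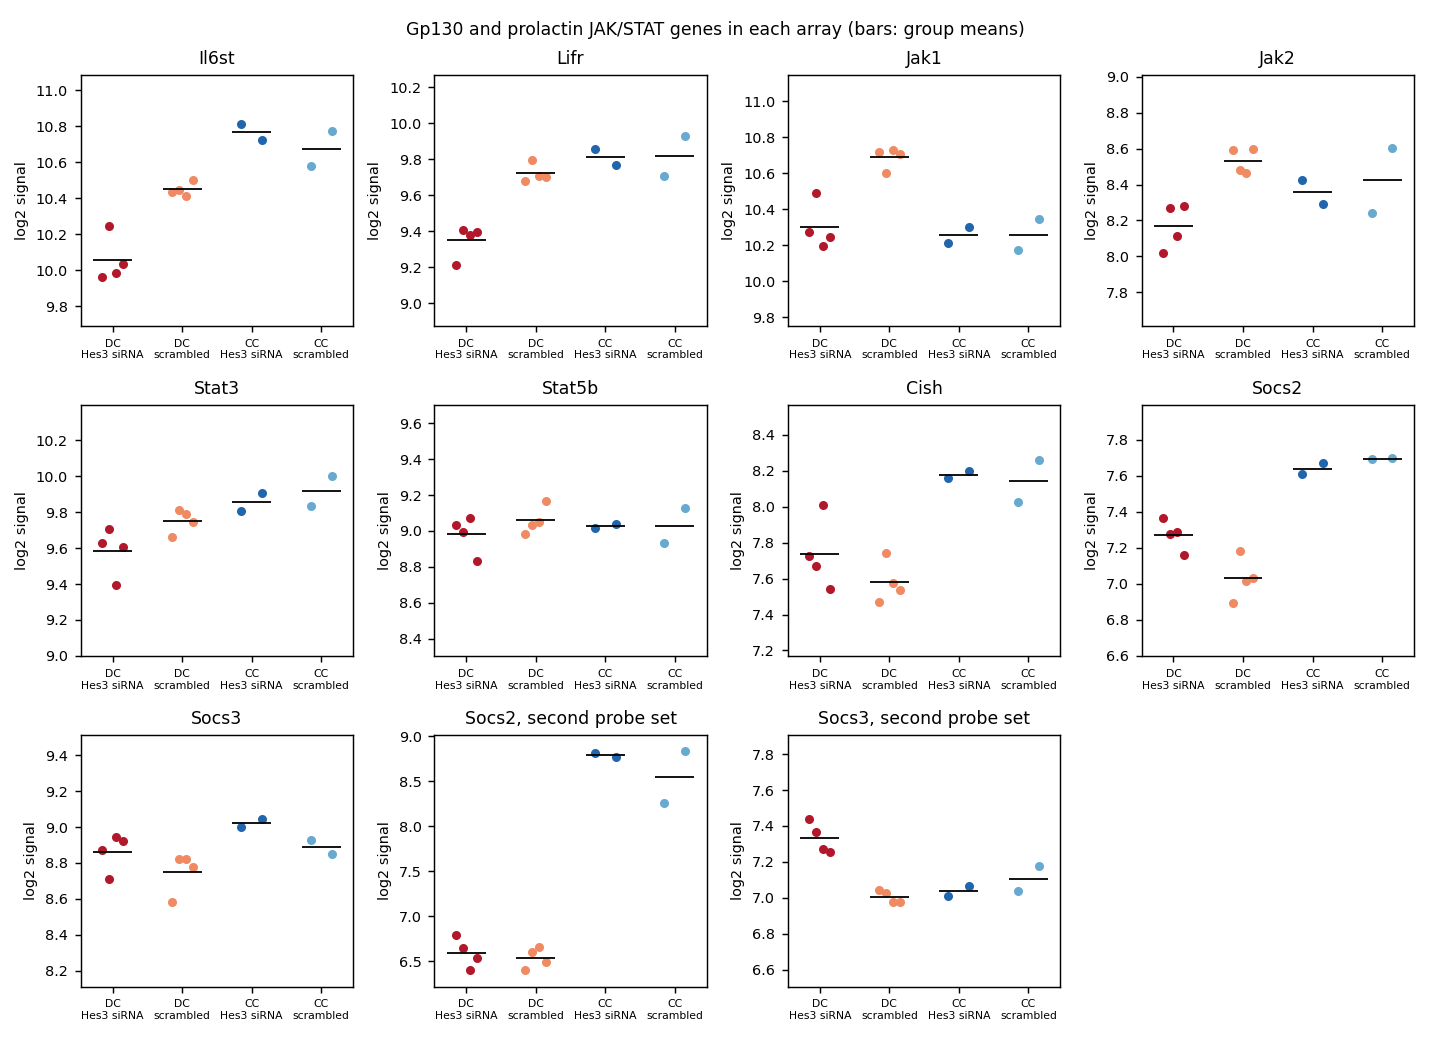
Log2 signal (vertical axes, which do not start at 0) of each of the 9 measured genes, and of the second probe sets of Socs2 and Socs3, in the 12 arrays. Points are arrays and bars are group means, for DC Hes3 siRNA, DC scrambled, CC Hes3 siRNA and CC scrambled from left to right. The second Socs2 probe set lies between 6.40 and 6.79 in the DC arrays and between 8.26 and 8.83 in the CC arrays.

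Among the receptor chains, Il6st had log2 signals of 9.96, 10.24, 9.98 and 10.03 in the DC arrays labelled Hes3 siRNA, against 10.44, 10.45, 10.41 and 10.50 in the DC scrambled arrays. In CC it read 10.81 and 10.72 with Hes3 siRNA, against 10.58 and 10.77 with scrambled siRNA. The DC arrays labelled Hes3 siRNA thus held the 4 lowest of the 12 values, the DC scrambled arrays came next, and the CC labels overlapped at the top. Il6st fell by 0.39 ± 0.0700 on the log2 scale (SE; adjusted p = 0.00302), or 23.9%, in DC with Hes3 siRNA relative to DC with scrambled siRNA. Relative to CC with the same Hes3 siRNA, it fell by 0.71 ± 0.0857 (SE; adjusted p = 2.99e-05), or 38.9%, and this call held in all 15 alternative settings. DC against CC with scrambled siRNA gave a log2 difference of -0.23 that did not pass (adjusted p = 0.133), although the DC arrays all lay below the CC arrays.

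Lifr was likewise lowest in the DC arrays labelled Hes3 siRNA, but its DC scrambled arrays overlapped the CC arrays. Its log2 signals were 9.21, 9.41, 9.38 and 9.40 in DC arrays labelled Hes3 siRNA, against 9.68, 9.80, 9.71 and 9.70 in DC scrambled arrays. In CC they were 9.86 and 9.77 with Hes3 siRNA, against 9.71 and 9.93 with scrambled siRNA. Only the DC Hes3 siRNA group lay apart from the rest, and its array 1 was the lowest. The fall within DC was 0.37 ± 0.0661 (log2, SE; adjusted p = 0.00302), or 22.8%. DC against CC with Hes3 siRNA fell by 0.46 ± 0.0810 (SE; adjusted p = 0.000701), or 27.5%, and the same comparison with scrambled siRNA gave -0.10 (adjusted p = 0.604). Over the 12 arrays Il6st and Lifr had a Pearson r of 0.939, the highest of any pair in the set, a description of arrays that share their groups.

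Jak1, the kinase that gp130 receptors use most, had a different pattern between media. It read 10.27, 10.49, 10.20 and 10.25 in DC arrays labelled Hes3 siRNA, against 10.72, 10.60, 10.73 and 10.71 in DC scrambled arrays, and in CC 10.21 and 10.30 with Hes3 siRNA, against 10.17 and 10.35 with scrambled siRNA. The DC scrambled arrays were the high group, above all 8 others, and the remaining 3 groups overlapped. Jak1 fell by 0.39 ± 0.0710 (log2, SE; adjusted p = 0.00317), or 23.5%, in DC with Hes3 siRNA relative to DC with scrambled siRNA. Among the 9 genes as chosen it alone rose in a comparison of media: with scrambled siRNA it was higher in DC than in CC by 0.43 ± 0.0870 (SE; adjusted p = 0.00478), or 34.7%. Without CC scrambled array 1 that difference was 0.34 and the adjusted p 0.0502. With Hes3 siRNA the DC and CC arrays overlapped (log2 difference 0.04, adjusted p = 0.676), while under cyclic loess normalization the difference was 0.22 and passed (adjusted p = 0.0345).

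Jak2, the kinase of the prolactin receptor, read 8.02, 8.27, 8.11 and 8.28 in DC arrays labelled Hes3 siRNA, against 8.59, 8.48, 8.46 and 8.60 in DC scrambled arrays. The CC values of Jak2 were 8.42 and 8.29 with Hes3 siRNA, against 8.24 and 8.60 with scrambled siRNA. The DC groups did not overlap. Of the CC scrambled arrays, the lower (8.24) lay among the DC Hes3 siRNA values and the higher (8.60) just above the DC scrambled values. The fall within DC was 0.36 ± 0.0826 (log2, SE; adjusted p = 0.00563), or 22.3%. DC against CC passed under neither label, with log2 differences of -0.19 for Hes3 siRNA (adjusted p = 0.138) and 0.11 for scrambled siRNA (adjusted p = 0.641).

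**Figure D2:**
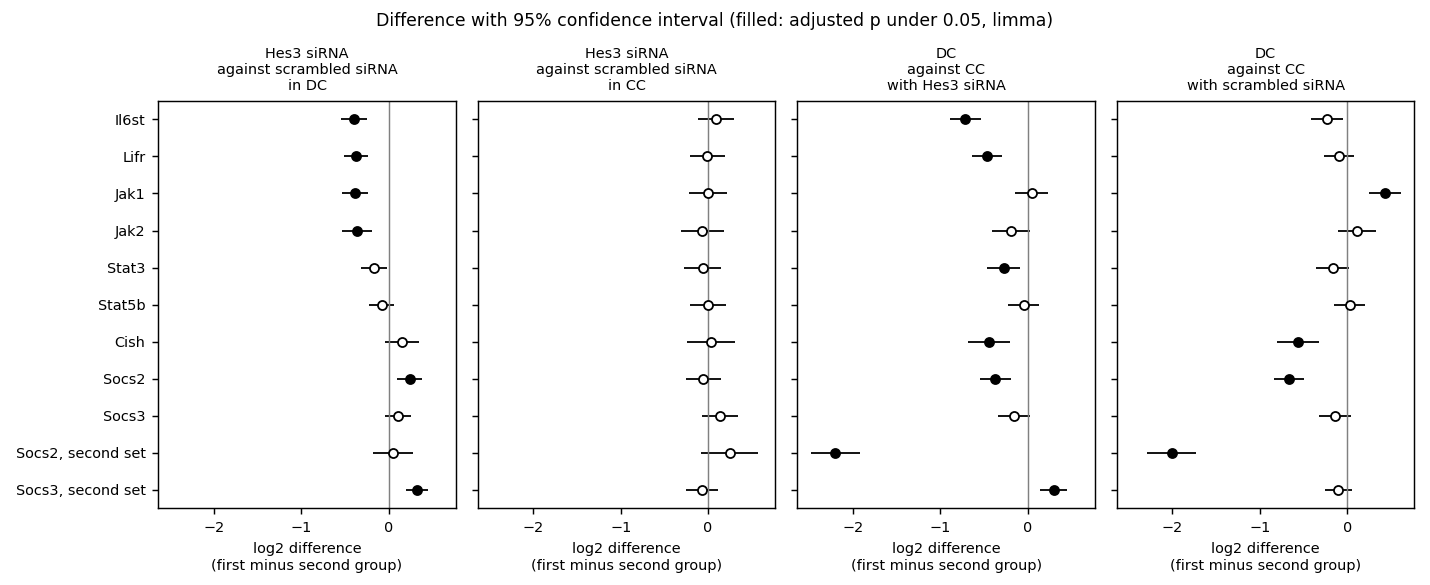
Log2 difference of each of the 9 genes, and of the second probe sets of Socs2 and Socs3, with its 95% confidence interval, in 4 panels: Hes3 siRNA against scrambled siRNA in DC and in CC, and DC against CC with Hes3 siRNA and with scrambled siRNA. Filled points have a limma adjusted p under 0.05. Within DC the filled points on the negative side are Il6st, Lifr, Jak1 and Jak2, between -0.36 and -0.39, and no point is filled within CC.

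Stat3, the main STAT protein of gp130 receptors, read 9.63, 9.70, 9.39 and 9.61 in DC arrays labelled Hes3 siRNA, against 9.66, 9.81, 9.79 and 9.74 in DC scrambled arrays. In CC the values were 9.81 and 9.91 with Hes3 siRNA, against 9.84 and 10.001 with scrambled siRNA. The DC groups overlapped, and the log2 difference of -0.17 ± 0.0715 (SE) did not pass (adjusted p = 0.0623). It passed with arrays centred on their median (-0.24, adjusted p = 0.0260) and without DC array 2 labelled Hes3 siRNA (-0.21, adjusted p = 0.0338). Relative to CC with Hes3 siRNA, Stat3 fell by 0.27 ± 0.0876 (SE; adjusted p = 0.0242). That call held in 8 of 15 alternatives and was lost, among others, without DC arrays 1 and 5 (log2 difference -0.20, adjusted p = 0.109) and without DC array 5 alone (-0.21, adjusted p = 0.0597). It was lost as well without CC array 1 labelled Hes3 siRNA (-0.32, adjusted p = 0.0682) and without CC array 2 of that label (-0.22, adjusted p = 0.187). With scrambled siRNA the log2 difference of DC against CC was -0.17 (adjusted p = 0.323).

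Stat5b, which carries signals of prolactin and growth hormone, passed in no comparison. It read 9.03, 8.99, 9.07 and 8.84 in DC arrays labelled Hes3 siRNA, against 8.99, 9.04, 9.05 and 9.17 in DC scrambled arrays. Its CC values were 9.02 and 9.04 with Hes3 siRNA, against 8.93 and 9.13 with scrambled siRNA. All 4 groups overlapped. The log2 difference within DC was -0.08, with an SE of 0.0682 (adjusted p = 0.347).

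The inhibitors are shown with the sequence before their gene starts, because STAT proteins bind the motif TTCNNNGAA there in known target genes, and because Socs2 and Cish moved together between media. RefSeq promoters (GRCm38.p6) were found for 8 of the 9 measured genes, with Socs2 the gene without an entry. TTCNNNGAA reads the same on both strands. It occurred in the 250 bases before the start of 7.02% of 32851 promoters and of 1 of the 8 genes, Socs3. The form with 4 bases between the arms, TTCNNNNGAA, occurred in 5.85% of promoters and in 0 of the 8 genes. Both sequences run 5′ to 3′ on the strand of the gene up to its start, and capitals mark the motif, which in Socs3 covers bases 154 to 146 before the start. The Cish window holds neither motif, which says only that these letters are not in it.
Socs3 (chr11:117969367-117969616, minus strand): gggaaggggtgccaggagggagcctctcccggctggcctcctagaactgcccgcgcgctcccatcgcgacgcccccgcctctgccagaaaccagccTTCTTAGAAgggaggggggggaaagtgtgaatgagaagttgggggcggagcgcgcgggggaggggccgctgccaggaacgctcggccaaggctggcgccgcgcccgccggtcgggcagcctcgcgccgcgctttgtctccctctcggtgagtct
Cish (chr9:107296409-107296658, plus strand): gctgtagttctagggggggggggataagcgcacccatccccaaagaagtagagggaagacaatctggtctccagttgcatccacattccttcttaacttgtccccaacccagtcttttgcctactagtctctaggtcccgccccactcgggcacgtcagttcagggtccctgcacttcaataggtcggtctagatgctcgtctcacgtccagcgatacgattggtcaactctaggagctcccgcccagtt

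Cish encodes an inhibitor of STAT5 signalling and is among the most direct targets of prolactin and growth hormone. It read 7.72, 7.67, 8.01 and 7.54 in DC arrays labelled Hes3 siRNA, against 7.47, 7.74, 7.57 and 7.54 in DC scrambled arrays. In CC it read 8.16 and 8.20 with Hes3 siRNA, against 8.03 and 8.26 with scrambled siRNA. Every DC array lay below every CC array, and the siRNA labels overlapped within each medium. Cish fell by 0.44 ± 0.112 (log2, SE; adjusted p = 0.00799), or 26.4%, in DC relative to CC with Hes3 siRNA. With scrambled siRNA the fall was 0.56 ± 0.112 (SE; adjusted p = 0.00436), or 32.3%. A single CC array decided each call: without CC array 2 labelled Hes3 siRNA the log2 difference was -0.42 (adjusted p = 0.0768), and without CC scrambled array 2 it was -0.44 (adjusted p = 0.0996).

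Socs2, which encodes a regulator of growth hormone and prolactin receptors, was measured by a pair of probe sets that differ in size of response, both annotated with the same 4 RefSeq transcripts. The probe set with the higher mean read 7.37, 7.27, 7.29 and 7.16 in DC arrays labelled Hes3 siRNA, against 6.89, 7.18, 7.02 and 7.03 in DC scrambled arrays. In CC it read 7.61 and 7.67 with Hes3 siRNA, against 7.69 and 7.70 with scrambled siRNA. All DC arrays lay below all CC arrays. Socs2 fell in DC relative to CC by 0.37 ± 0.0824 (log2, SE; adjusted p = 0.00394), or 22.5%, with Hes3 siRNA, a call lost without CC array 2 of that label (-0.34, adjusted p = 0.0605). With scrambled siRNA it fell by 0.66 ± 0.0824 (SE; adjusted p = 0.0001), or 36.9%.

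The second Socs2 probe set, examined after the values of both were seen, read 6.79, 6.65, 6.40 and 6.54 in DC arrays labelled Hes3 siRNA, against 8.82 and 8.77 in CC arrays of that label. With scrambled siRNA it read 6.40, 6.60, 6.66 and 6.49 in DC, against 8.26 and 8.83 in CC. The media groups were more than 1 log2 unit apart under both labels. In DC the signal fell by 2.20 ± 0.132 (log2, SE; adjusted p = 9.34e-08) with Hes3 siRNA, which is 4.60-fold lower, and fell by 2.01 ± 0.132 (SE; adjusted p = 3.62e-07) with scrambled siRNA, 4.02-fold lower. These differences passed in all 12 and all 11 alternatives run on this probe set, with ranges of -2.39 to -2.08 and -2.30 to -1.72. Both probe sets fell, and which follows Socs2 mRNA more closely was not tested.

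Within DC the first Socs2 probe set was higher with Hes3 siRNA by 0.24 ± 0.0673 (log2, SE; adjusted p = 0.0120), or 18.2%, while 1 scrambled array, at 7.18, lay above the lowest Hes3 siRNA array, at 7.16. The second probe set gave 0.06 ± 0.108 (SE; adjusted p = 0.675) in the same comparison. Over its 14 alternatives it ran from -0.12 to 0.21, so its sign turned, and it passed in 0 of them. The call of the first probe set was also lost under quantile normalization (0.14), cyclic loess normalization (0.07) and the mean of both probe sets (0.15).

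Socs3, the inhibitor that binds gp130 itself, read 8.87, 8.71, 8.94 and 8.92 in DC arrays labelled Hes3 siRNA, against 8.58, 8.82, 8.82 and 8.78 in DC scrambled arrays. In CC it read 9.001 and 9.04 with Hes3 siRNA, against 8.93 and 8.85 with scrambled siRNA. The DC groups overlapped, and the log2 difference of 0.11 ± 0.0699 (SE) did not pass (adjusted p = 0.185), nor did DC against CC with Hes3 siRNA (-0.16, adjusted p = 0.136) or with scrambled siRNA (-0.14, adjusted p = 0.440). A second, dimmer probe set, whose annotation lists 0 RefSeq transcripts, read 7.44, 7.36, 7.27 and 7.26 in DC arrays labelled Hes3 siRNA, against 7.04, 7.03, 6.98 and 6.98 in DC scrambled arrays. These groups did not overlap, and the difference was 0.33 ± 0.0598 (log2, SE; adjusted p = 0.00312), past the threshold in 12 of 14 alternatives on this probe set. Under cyclic loess normalization the difference was 0.15 and did not pass (adjusted p = 0.0985). The probe set averaged 7.14, and genes with mean signals of 6.98 to 8.11 had a median difference of 0.21 in this comparison, with 56.9% higher. In CC the second probe set read 7.01 and 7.06 with Hes3 siRNA, against 7.04 and 7.17 with scrambled siRNA. DC was thus higher than CC by 0.30 (adjusted p = 0.00690) with Hes3 siRNA, a call that passed in 8 of 12 alternatives. The probe sets of Socs3 therefore disagree on the calls and, between media with Hes3 siRNA, on the sign.

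Counted by arrays, the groups lay apart within DC for 4 of 9 genes, all lower with Hes3 siRNA, where 17.0% of all genes lay apart and lower and 23.9% apart and higher, 40.9% in all. Within CC, Socs2 lay apart and lower and Socs3 apart and higher, 2 of 9, against 26.9% of all genes. Between media, 7 of 9 genes lay apart and lower in DC with Hes3 siRNA, against 23.4% of all genes lower and 38.4% higher, 61.8% in all. With scrambled siRNA 5 of 9 lay apart and lower (14.1% of all genes) and 1 of 9 apart and higher (13.8%), against 27.9% of all genes in all.

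The 4 genes that fell within DC have bright or middling probe sets, and direction followed brightness across all genes in that comparison. With the 19938 genes in 4 equal parts by mean signal, the median log2 difference was 0.15 in the dimmest part, 0.21 in the second, -0.03 in the third and -0.15 in the brightest. The brightest part, in which 40.9% of genes were lower and 2.39% higher, holds Il6st, Lifr, Jak1 and Stat3. Jak2, Stat5b and Socs3 lie in the third part (24.7% lower, 19.6% higher), and Socs2 and Cish in the second (6.2% lower, 56.9% higher). The falls of Il6st, Lifr, Jak1 and Jak2 exceeded the median of their own parts, and the rise of 0.24 in Socs2 was close to the median of 0.21 around it. DC against CC with Hes3 siRNA, which uses the same DC arrays, had medians of 0.15, 0.19, -0.03 and -0.19 from dimmest to brightest, with 44.5% of genes lower in the brightest part. The part of signal level in these differences was not tested.

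**Figure D3:**
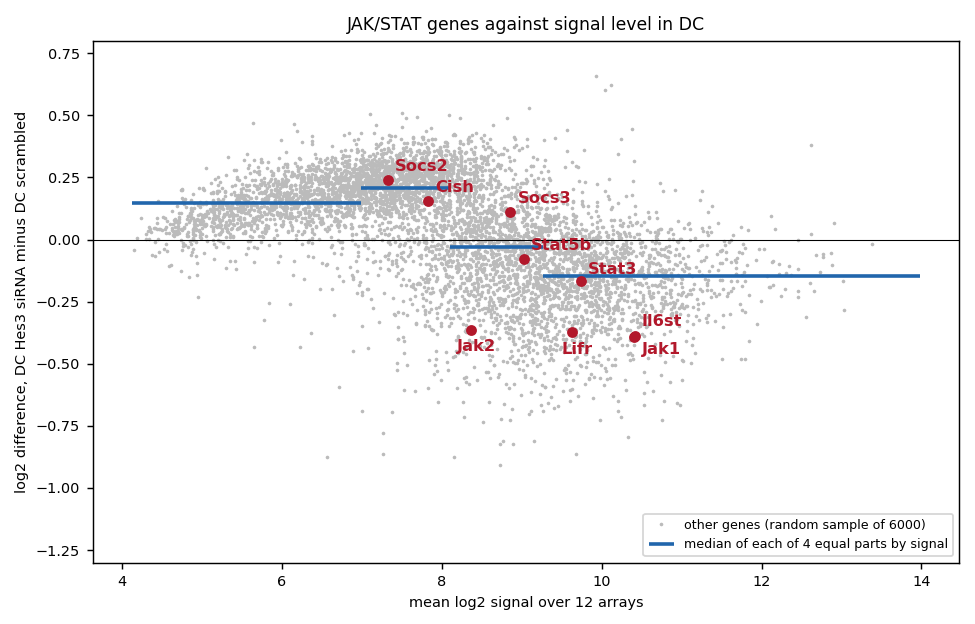
Log2 difference of Hes3 siRNA minus scrambled siRNA in DC (vertical axis) against mean log2 signal over the 12 arrays (horizontal axis). Grey points are a random sample of 6000 genes, blue marks are medians of the 4 equal parts by signal, and red points are the 9 genes. The medians run from 0.15 in the dimmest part to -0.15 in the brightest, and Il6st, Lifr, Jak1 and Jak2 lie below the medians of their parts.

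The calls within DC rest in part on DC arrays 1 and 5 labelled Hes3 siRNA. Without both, 1 of 9 genes passed, Lifr (-0.32, adjusted p = 0.0485), where 1.66% of all genes passed and 1.41% were lower. Il6st (-0.31, adjusted p = 0.0576), Jak1 (-0.32, adjusted p = 0.0582) and Jak2 (-0.26, adjusted p = 0.0995) then kept their sign and missed the threshold. Socs2 gave 0.19 (adjusted p = 0.139). DC against CC with Hes3 siRNA kept 4 of 9 genes without these arrays, against 18.2% of all genes: Il6st (-0.63, adjusted p = 0.000450), Lifr (-0.41, adjusted p = 0.00497), Socs2 (-0.42, adjusted p = 0.00634) and Cish (-0.57, adjusted p = 0.00173).

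Markers of other cell types moved in the same comparison. Within DC, arrays labelled Hes3 siRNA had 4 of 4 acinar, 3 of 4 duct, 5 of 6 fibroblast, 4 of 8 macrophage and endothelium, and 3 of 5 alpha, delta and PP cell markers higher. Of the beta cell markers, 4 of 8 were lower. Over all genes 28.9% were higher and 18.3% lower, and 56.9% were higher in the second-dimmest part. In the brightest part, whose range of signal holds the mean of the beta cell markers, 40.9% of genes were lower. The mean of the beta cell markers per array ran from 11.8 to 12.0 with Hes3 siRNA and from 12.0 to 12.1 with scrambled siRNA, and that of the fibroblast markers from 8.02 to 8.22 with Hes3 siRNA and from 7.76 to 7.84 with scrambled siRNA. Without DC arrays 1 and 5, 0 of 27 markers of other types were higher in limma at an adjusted p under 0.05, and 15 of 27 at an unadjusted p under 0.05, which 5827 of all 19938 genes then passed in either direction. The part of other cells in the results above was not tested.

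**Figure D4:**
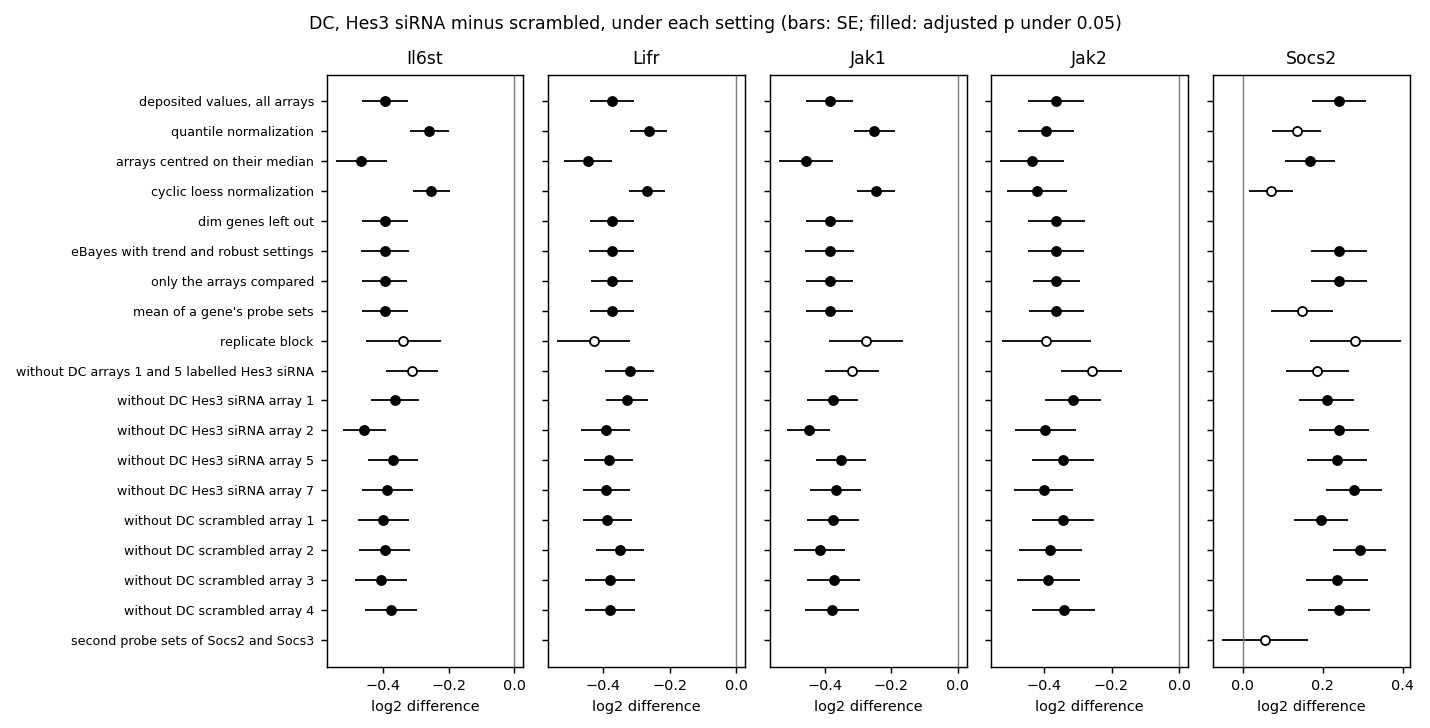
Log2 difference of Hes3 siRNA minus scrambled siRNA in DC for Il6st, Lifr, Jak1, Jak2 and Socs2 under each processing setting, with bars of 1 SE. The sign of all 5 genes stays the same in every setting drawn, and the sizes without DC arrays 1 and 5 are -0.31, -0.32, -0.32, -0.26 and 0.19. The second Socs2 probe set is drawn only as fitted on the deposited values with all arrays.

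Whether the response to the siRNA label differed between media was tested directly, as the difference of the siRNA contrasts in DC and CC. Of the 9 genes 0 passed limma, as did 0 of 19938 genes. At an unadjusted p under 0.05, 4 of 9 genes (Il6st, Lifr, Jak1 and Socs2) and 3471 of 19938 genes (17.4%) did. The difference for Il6st was -0.49 ± 0.121 (log2, SE), from a siRNA difference of -0.39 in DC against 0.09 in CC (adjusted p = 0.177). That for Lifr was -0.37 (adjusted p = 0.198), that for Jak1 -0.39 (adjusted p = 0.200) and that for Socs2 0.30 (adjusted p = 0.237). Without CC scrambled array 2, 4 of 9 genes passed (Il6st, Lifr, Jak1 and Jak2), along with 2056 of all genes. Within CC itself, the 9 log2 differences lay between -0.07 and 0.13, with adjusted p = 1 for each.

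Around these genes, 79 of 89 listed pathway genes were measured. Within DC, 20 of 79 were higher and 14 of 79 lower with Hes3 siRNA, with a median log2 difference of 0.10, beside 28.9% higher, 18.3% lower and a median of 0.06 over all genes. The lists below are read against those shares, and no difference of a list from all genes was tested. Of the ligands, 8 of 13 were higher and 0 lower (median 0.23), and under quantile normalization, median centring and cyclic loess normalization 4, 5 and 1 were higher and 0 lower. Among them, Ctf1 and Ctf2, the cardiotrophins, rose by 0.32 and 0.23 and Lif by 0.26 (adjusted p = 0.00468, 0.0139 and 0.00731). Under cyclic loess these calls were lost, at 0.14 for Ctf1, 0.11 for Ctf2 and 0.09 for Lif (adjusted p = 0.0782, 0.157 and 0.182), and the ligand still past the threshold was Il27. The ligand probe sets are mostly dim, and as given above, dim genes in general were higher in this comparison. Of 16 other receptor genes, 5 were higher and 4 lower. Il6ra, the binding chain of the interleukin-6 receptor, rose by 0.33 (adjusted p = 0.00482), while the interferon receptor chains Ifnar2 and Ifngr1 fell by 0.54 and 0.40 (adjusted p = 0.00336 and 0.00326).

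Among the 14 other inhibitors 3 were higher and 4 lower within DC. Ptpn2, a phosphatase that acts on JAK and STAT proteins, fell by 0.53 (adjusted p = 0.00230) and passed in all 17 alternatives. Socs4, of the same family as Socs3, fell by 0.34 (adjusted p = 0.00350), and Pias1, a SUMO ligase, fell by 0.53 (adjusted p = 0.00463). Of 17 STAT3 target genes, 1 was higher and 2 lower, Hif1a (-0.45, adjusted p = 0.00564) and Mcl1 (-0.28, adjusted p = 0.0272), the second past the threshold in 8 of 17 alternatives. The prolactin and STAT5 targets of beta cells had 3 of 14 higher and 3 of 14 lower, among them Bcl6 at -0.30 (adjusted p = 0.00369). Without DC arrays 1 and 5 labelled Hes3 siRNA, a setting added for these lists after the values were seen, 0 of 79 were higher and 1 of 79 lower in limma, Ptpn2 (-0.37, adjusted p = 0.0455). Over all genes 1.66% passed limma in that setting, and 1.41% were lower. At an unadjusted p under 0.05 the counts of the 79 were then 8 higher and 12 lower, beside 5827 of all 19938 genes in either direction.

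Between media, 12 of 79 pathway genes were higher and 18 of 79 lower in DC than in CC with Hes3 siRNA, and 2 of 79 higher and 8 of 79 lower with scrambled siRNA. Over all genes 21.2% were higher and 18.8% lower with Hes3 siRNA, and 3.09% higher and 5.45% lower with scrambled siRNA. The medians were 0.04 and 0.01, beside 0.09 and 0.02 over all genes. Of the 14 prolactin and STAT5 targets, 1 was higher and 4 lower with Hes3 siRNA, and 1 higher and 1 lower with scrambled siRNA. Tph1, which encodes the serotonin-making enzyme that prolactin induces in islets of pregnancy, averaged 7.35 in DC and 7.92 in CC with Hes3 siRNA. It averaged 7.30 in DC and 7.77 in CC with scrambled siRNA. Tph1 thus fell under both labels, by 0.57 (adjusted p = 0.000489) and 0.47 (adjusted p = 0.00523), the second not passing without CC scrambled array 2 (-0.31, adjusted p = 0.146). Bcl6, a repressor that competes with STAT5 for its sites, went the other way, higher in DC by 0.25 with Hes3 siRNA (adjusted p = 0.0160) and by 0.49 with scrambled siRNA (adjusted p = 0.000486). The Bcl6 call with scrambled siRNA passed in all 14 alternatives, and that with Hes3 siRNA in 10 of 15.

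Of the 17 STAT3 targets, 3 were higher and 4 lower in DC with Hes3 siRNA (median -0.01), and 0 higher and 3 lower with scrambled siRNA. Ccnd1, which encodes cyclin D1, rose by 0.31 with Hes3 siRNA (adjusted p = 0.00486), a call lost without CC array 1 of that label (0.23). The Ccnd1 call was also lost under cyclic loess normalization (0.17, adjusted p = 0.0603) and with the replicate block (0.29, adjusted p = 0.0623). Mcl1, a survival factor, fell in DC by 0.87 with Hes3 siRNA (adjusted p = 7.64e-05) and by 0.50 with scrambled siRNA (adjusted p = 0.0120). Fos, an immediate early transcription factor, fell by 0.46 (adjusted p = 0.00360) with Hes3 siRNA and by 0.64 (adjusted p = 0.000762) with scrambled siRNA. Of the 16 other receptor genes, 2 were higher and 5 lower with Hes3 siRNA, and 0 higher and 2 lower with scrambled siRNA. Ifnar2 fell in DC by 1.18 with Hes3 siRNA (adjusted p = 1.10e-05), in all 15 alternatives, and by 0.44 with scrambled siRNA (adjusted p = 0.0386). Csf2rb, the shared chain of the interleukin-3 and GM-CSF receptors, fell by 0.47 with scrambled siRNA (adjusted p = 0.00864). Stat2, of the interferon pathway, rose in DC by 0.53 with Hes3 siRNA (adjusted p = 0.000138) and by 0.50 with scrambled siRNA (adjusted p = 0.000630), and it passed in all 15 and all 14 alternatives. Without CC scrambled array 2, the scrambled siRNA calls of Mcl1 (-0.40, adjusted p = 0.186), Ifnar2 (-0.21, adjusted p = 0.612) and Csf2rb (-0.28, adjusted p = 0.235) were lost, and the Ifnar2 call held in 9 of 14 alternatives. The Fos call with Hes3 siRNA was lost without CC array 2 of that label (-0.41, adjusted p = 0.0603). Without DC arrays 1 and 5, the Hes3 siRNA comparison of media had 4 of 79 genes higher and 10 of 79 lower. Of all 19938 genes, 1168 were then higher and 2463 lower (12.4%), 18.2% in all.

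**Figure D5:**
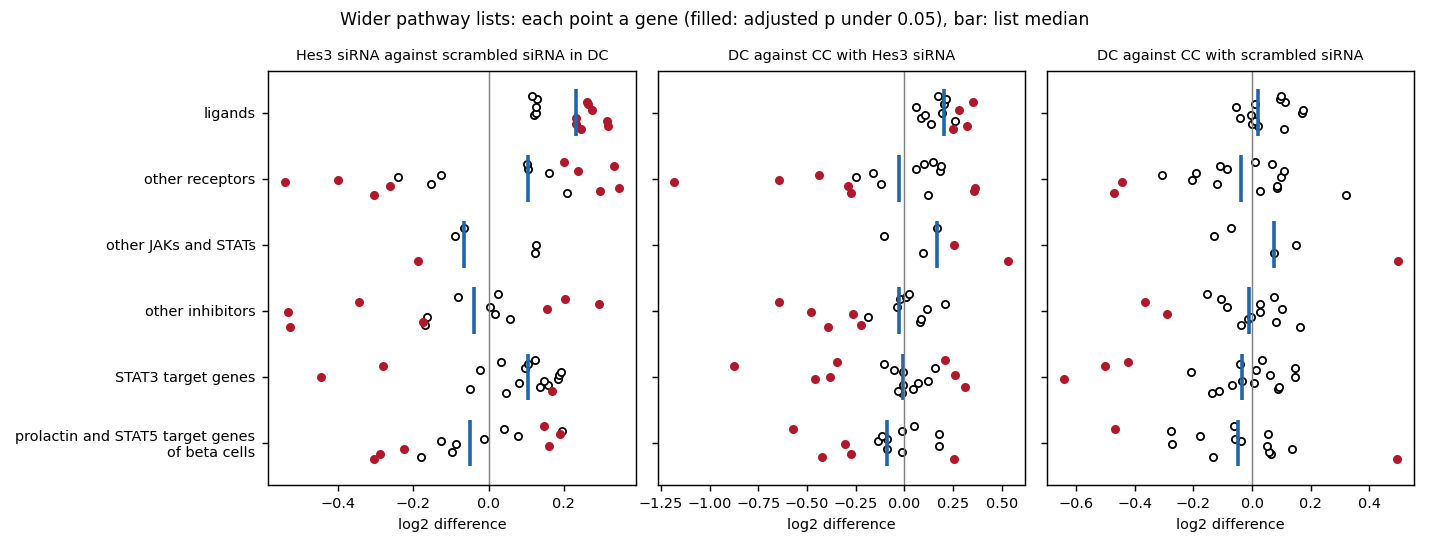
Log2 differences of the genes of 6 pathway lists in 3 comparisons: Hes3 siRNA against scrambled siRNA in DC, and DC against CC with Hes3 siRNA and with scrambled siRNA. Filled points have a limma adjusted p under 0.05 and bars are list medians. The ligands lie above 0 in the siRNA comparison within DC, from 0.12 to 0.32, and the lowest point overall is Ifnar2 at -1.18.

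The genes with the most similar profile to each member were found by Pearson r over the 12 arrays, a description of arrays that share 4 groups. Il6st was closest to Ankle2 (0.988), Rnf128 (0.986) and Smpdl3a (0.983), and 876 genes reached an r over 0.9 with it. Lifr was closest to Glb1l2 (0.978), Jak1 to Cdk19 (0.976) and Glul (0.975), Jak2 to Snx27 (0.965) and Stat3 to Gem (0.971). Socs2 was closest to Id3 (0.961) and Crispld2 (0.955), and Cish to Slc39a13 (0.963) and Slc18a1 (0.961). Stat5b and Socs3 each had 1 gene over 0.9, Rragd (0.925) and 4930515G01Rik (0.928). Within the set, Socs2 and Cish had an r of 0.920, and Jak1 and Socs2 ran against each other at -0.763.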

How the data were processed

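MIN6 RNA was hybridized to 12 Affymetrix mouse arrays, 250 ng for each, per the labels' protocols. The deposited log2 table has 35556 probe sets in rows and arrays in columns. The log2 scale is read from the values, and the authors' background correction, summarization and normalization are not given in the sources used here. Since the labels speak of 1 experiment, p-values measure only the spread between these samples, which may be technical. Precision is limited by the number of arrays. The table's 12 columns all entered the fit, with 0 left out and 0 pairs identical. The platform annotation of 2016 gave 21789 probe sets 1 gene symbol, 1621 several and 12146 none, and the probe set with the highest mean stood for each of 999 genes that had several.

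Groups were compared with limma 3.58.1 (lmFit, eBayes; R 4.3.3) on the deposited values, with 1 mean per group, 8 residual and 7.62 prior degrees of freedom, and 5 contrasts. P-values are two-sided and adjusted by the Benjamini-Hochberg method over 19938 genes in each contrast. The fit was tested on simulated data. Promoters were searched in Python 3.11.15 with pandas 2.3.3.

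The genes of the set, the pathway and marker lists and the tests were chosen with earlier results of these data known. From each list, up to 4 genes past the threshold with the smallest p were eligible to be named in each comparison, and for each gene of the set the 3 with the highest r. The alternatives changed the normalization (quantile, median centring, cyclic loess), dropped genes whose mean signal lay under the 40th percentile, used trend and robust options in eBayes, fitted the compared arrays alone, averaged the probe sets of each gene, added replicate number as a block, left out each array in turn, and left out DC arrays 1 and 5 of the Hes3 siRNA label together. The second probe sets of Socs2 and Socs3 were added after seeing the data. Replicate numbers were not taken as pairs: the labels do not say that a number marks a shared batch, and same-numbered arrays had correlations of deviations from -0.44 to 0.54.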

Additional observations from a re-analysis of the deposited data

Results flagged for a closer look

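Of 22 groups of 4 arrays examined for 1 array far from the others, 2 had a gap above Dixon's 95% critical value, and chance gives about 1 in 20. For Lifr in DC arrays labelled Hes3 siRNA, array 1 (9.21) lay below the other 3 (9.38 to 9.41), with a gap of 0.843 of the group's range. For Jak1 in DC scrambled arrays, array 2 (10.60) lay below the other 3 (10.71 to 10.73), with a gap of 0.854 of the range. Leaving out either array kept the Lifr and Jak1 calls within DC.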

How the results depend on the processing

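Within DC, 5 of 9 genes passed, 1 without DC arrays 1 and 5 labelled Hes3 siRNA, and 5 to 6 with single arrays left out. DC against CC with Hes3 siRNA gave 5 of 9, and 2 to 5 with single arrays left out, the 2 being without CC array 2 of that label. The difference of contrasts gave 0, and 0 to 4 with single arrays left out, and the counts within CC stayed at 0. Without a CC array, the lone array left is assumed to vary like the other groups. With replicate number as a block, the counts were 0 within DC, and 3 and 2 for DC against CC with Hes3 and scrambled siRNA (5 and 3 without the block). Jak1 in the last had an adjusted p of 0.0682. Numbers 3, 4, 5 and 7 occur only in DC, each on 1 array, so the block takes up those arrays. Differences that involve DC then rest on DC arrays 1 and 2 of each label, and the block is no adjustment of the full design. The filter on dim genes dropped Socs2, and a fit on only the arrays compared has no form for the difference of contrasts.

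Over all genes within DC, 9408 passed, against 5736 under quantile normalization, 4297 under cyclic loess, 5436 without dim genes, 620 with the block, 331 without arrays 1 and 5, and 5754 to 10476 with single arrays left out. The share of calls that were higher was 61.3%, against 36.7% with arrays centred, 39.4% under loess, 38.1% without dim genes, 18.1% with the block and 14.8% without arrays 1 and 5. DC against CC with Hes3 siRNA had 7986, against 5025, 5131 and 4051 under quantile, loess and block, 3631 without arrays 1 and 5, and 2357 to 9516 with single arrays left out. Its higher share was 53%, against 17.3% centred, 40.7% under quantile, 36.5% under loess, 36.4% without dim genes, 36.8% with the block, 32.2% without arrays 1 and 5 and 26.3% without CC array 2 of that label. With scrambled siRNA 1702 passed, 804 with the block, and 742 to 2364 with single arrays left out.

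The differences whose signs turned had not passed with the deposited values and the design as given. The second probe sets enter this list only as fitted on the deposited values with all arrays. Within DC, Stat5b turned to 0.0031 under quantile normalization and 0.0024 with the block. Within CC, the turned values were 0.010 and 0.015 for Lifr (quantile, loess), 0.0042, 0.0031 and 0.0020 for Jak1 and 0.035, 0.0013 and 0.018 for Stat5b (quantile, centred, loess), 0.097 and 0.25 for Socs2 (mean of probe sets, second probe set) and -0.07 for Socs3 (second probe set). For DC against CC with Hes3 siRNA they were -0.066 for Jak1 (centred), 0.015 for Stat5b (quantile), and 0.069 and 0.30 for Socs3 (mean, second). With scrambled siRNA Stat5b turned to -0.0040 (centred) and -0.020 (block). In the difference of contrasts they were 0.0057 for Stat5b (block), 0.018, 0.19 and 0.40 for Socs3 (quantile, mean, second), -0.19 for Socs2 (second) and -0.011 for Cish (without arrays 1 and 5). With single arrays left out, the ranges that crossed 0 were, within CC, Il6st -0.0046 to 0.19, Lifr -0.12 to 0.10, Jak1 -0.089 to 0.086, Jak2 -0.25 to 0.12, Stat3 -0.14 to 0.021, Stat5b -0.10 to 0.095 and Cish -0.084 to 0.15. Between media they were Jak1 -0.019 to 0.091 and Stat5b -0.073 to 0.0051 with Hes3 siRNA, and Lifr -0.21 to 0.013, Jak2 -0.070 to 0.29 and Stat5b -0.068 to 0.13 with scrambled siRNA. In the difference of contrasts they were Stat5b -0.17 to 0.024 and Socs3 -0.079 to 0.028. The causes were not tested.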
